A study of Mus musculus with 6 samples.

Results

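Vascular and angiopoietin-related genes were examined by symbol in the deposited expression data: Clec14a, Ccm2l, Angpt1 and Angptl7 in a list of read counts, and S1pr1 in a second list of expression values. These are 5 of the 817 genes held by the lists together. Most defining genes of the endothelium, the cell layer that lines blood vessels, were in neither list. In lists this short, their absence does not show whether they were expressed. The name vascular describes what the genes are known for and not the cells. By their labels the cells were mouse preadipocytes of 3T3-L1, a fibroblast-derived line that can be turned into fat cells.

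The study asked which genes depend on Lhx8, a LIM homeobox transcription factor, by sequencing poly(A) RNA of cultured cells. In the siRNA group, labelled LHX8 deficient, 3 libraries came from cells given small interfering RNA against Lhx8. In the vehicle group, labelled wild-type, 3 libraries came from cells given the transfection reagent Turbofectamine without siRNA. Both groups therefore share the reagent, and what follows from less Lhx8 cannot be told apart from what any siRNA does. The labels number the line upward from library to library and do not say that libraries came from separate cultures, and every p-value covers just the spread among these 6 libraries, possibly a technical one. The study describes differentiated adipocytes as well as preadipocytes, and the stage of these cells is uncertain. Lhx8 was in neither list, and its knockdown could not be checked in these data. The study reports a loss of LHX8 staining after Lhx8 siRNA in primary mouse adipocytes in culture, which is not a check of these libraries.

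The count list held 232 genes, chosen by the authors for a difference between the groups, and the second list held 602 genes on an unstated scale. Count totals over the list, which are not library depths, were 24314 to 25922 in the siRNA libraries and 24569 to 130467 in the vehicle libraries, with the highest in vehicle 3. Vehicle 3 was the highest of the 6 libraries for 86.6% of the count list. Values of the count list are therefore given with and without vehicle 3. In the second list the median value per library lay between 60.1 and 67.2, and the depth behind it is unknown.

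Blood vessels form and mature through signals between the endothelium and the cells around it. Angiopoietin 1 is secreted mainly by perivascular and mesenchymal cells and activates the endothelial receptor TEK, also called TIE2, which steadies the vessel wall. Sphingosine-1-phosphate, a lipid carried in blood, acts through the G protein-coupled receptor S1PR1 to tighten endothelial junctions, and the same receptor guides lymphocytes out of lymphoid tissue. Fat depots are rich in capillaries, and their stromal cells make angiogenic factors.

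Clec14a and Angptl7 are shown by the sequence just before their start sites, because Lhx8 encodes a homeodomain protein and these were the 2 of the 5 genes matched in the promoter table used (RefSeq, GRCm38.p6). Each run holds 250 bases 5′ to 3′ on the minus strand, ending at the base before the start site, from chr12:58269259-58269508 for Clec14a and chr4:148500463-148500712 for Angptl7. Capitals mark the core TAAT, read on either strand (TAAT or ATTA), which many homeodomain proteins bind.
Clec14a: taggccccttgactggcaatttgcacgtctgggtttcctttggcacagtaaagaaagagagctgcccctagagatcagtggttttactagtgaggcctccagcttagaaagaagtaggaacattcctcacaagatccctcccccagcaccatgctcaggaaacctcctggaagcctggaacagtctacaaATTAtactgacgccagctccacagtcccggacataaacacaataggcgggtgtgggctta
Angptl7: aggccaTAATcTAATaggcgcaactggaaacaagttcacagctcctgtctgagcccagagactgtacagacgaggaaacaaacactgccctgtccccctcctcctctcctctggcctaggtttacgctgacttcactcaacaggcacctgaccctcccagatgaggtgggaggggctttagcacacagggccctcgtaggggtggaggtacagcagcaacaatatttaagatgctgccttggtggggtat
The core occurred 1 time before Clec14a and 2 times before Angptl7, and 54.9% of all 32851 promoters of this length held it at least 1 time. The palindrome TAATTA, which contains both forms of the core overlapping, was in neither window and in 4.84% of all promoters. A match describes the letters only and is not a binding site.

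The counted vascular genes were high in vehicle 3 and near one another in the other 5 libraries. No counted member passed the test of siRNA against vehicle (0 of 4, where 0% of the 232 genes passed edgeR's quasi-likelihood test), and without vehicle 3 the means of the groups lay close together. The 4 genes are taken in turn, first the endothelial genes and then the secreted angiopoietin-type factors.

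Clec14a (ENSMUSG00000045930), an endothelial surface lectin involved in vessel sprouting, had counts of 46, 68 and 63 in siRNA 1, 2 and 3, against 69, 56 and 432 in vehicle 1, 2 and 3. Vehicle 3 alone stood apart, and siRNA 2 and 3 exceeded vehicle 2. The mean count was 59.0 ± 11.5 with siRNA and 185.7 ± 213 with vehicle (SD, n = 3 each). The log2 fold of siRNA over vehicle was -1.65 ± 1.10 (SE, edgeR, adjusted p = 0.317), and -0.08 ± 0.27 without vehicle 3 (adjusted p = 0.876, edgeR).

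Ccm2l (ENSMUSG00000027474), a paralogue of the cerebral cavernous malformation protein CCM2 that acts in endothelial and cardiac development, was counted in a single library. Its count was 0 in each siRNA library, 0 in vehicle 1 and 2 and 20 in vehicle 3. The summed siRNA count was at least 6.67-fold lower than that of vehicle, taking a floor of 3 counts over the siRNA group, since a count of 0 allows up to about 3. That bound is on raw counts, and as a share of the list's total count in each group it was at least 2.72-fold lower. Both bounds take the 20 counts of vehicle 3 as exact and cover no spread between libraries, so they describe that library and not the vehicle group. Ccm2l met the minimum summed count of 10 only through vehicle 3. Without vehicle 3 both groups were at 0, and no fold can be given. The unadjusted p of 0.0427 (edgeR, adjusted p = 0.317) rests on that library alone. Only Ccm2l and Zscan4-ps3, named after its values were seen, had counts in vehicle 3 and in no other library (0.862% of the list).

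Angpt1 (ENSMUSG00000022309), the secreted ligand of TEK, had counts of 65, 54 and 67 in siRNA 1, 2 and 3, against 58, 73 and 408 in vehicle 1, 2 and 3. The siRNA counts lay within the span of vehicle 1 and 2, apart from siRNA 2 just below it. Mean counts were 62.0 ± 7.0 with siRNA and 179.7 ± 198 with vehicle (SD, n = 3 each), a log2 fold of -1.53 ± 1.09 (SE, edgeR, adjusted p = 0.317). Without vehicle 3 it was -0.08 ± 0.24 (adjusted p = 0.869, edgeR). The count sums 6 transcript models, 1 from Ensembl and 5 with RNAcentral identifiers. In GENCODE M21 (GRCm38) the gene shares 737 exon bases with an antisense transcript, Gm17473, from which reads cannot be told apart where counting ignores strand.

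Angptl7 (ENSMUSG00000028989), a secreted angiopoietin-like protein with a fibrinogen-like domain that is best known from the eye, had counts of 22, 29 and 21 in siRNA 1, 2 and 3, against 16, 29 and 288 in vehicle 1, 2 and 3. It had the widest gap of the 3 members with counts in every library, and the lowest count of the 6 libraries was a vehicle one. Its mean was 24.0 ± 4.36 with siRNA and 111 ± 153 with vehicle (SD, n = 3 each), with a log2 fold of -2.20 ± 1.17 (SE, edgeR, adjusted p = 0.317). Leaving out vehicle 3 turned the sign, to 0.09 ± 0.35 (adjusted p = 0.896, edgeR). In GENCODE M21 Angptl7 lies inside Mtor, which runs on the opposite strand, and shares 0 exon bases with it, so that the overlap is with intron sequence.

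**Figure D1:**
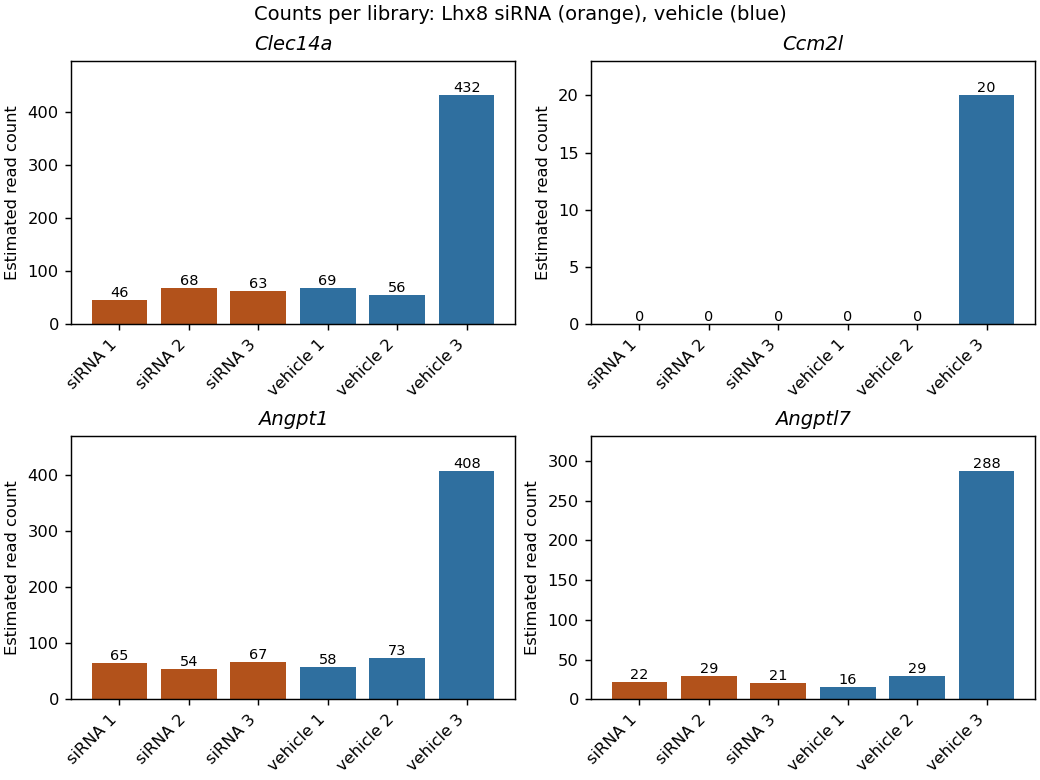
Estimated read counts (linear axis from 0) of Clec14a, Ccm2l, Angpt1 and Angptl7 in each library, siRNA in orange and vehicle in blue, with the count above each bar. Vehicle 3 holds the highest bar in all 4 panels, at 432, 20, 408 and 288, and the remaining 5 libraries lie close together.

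All 4 counted members had their highest count in vehicle 3, as did 86.6% of the list. Groups overlapped for all 4 (0 of 4 separated, against 18.5% of the list). Exact two-sided permutation tests over the 3 against 3 libraries gave p = 0.4 for Clec14a and Angpt1, 0.7 for Angptl7 and 1.0 for Ccm2l, and the smallest p this design allows is 0.1.

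Members differed in how far vehicle 3 exceeded the other vehicle libraries. Angptl7 in vehicle 3 was 12.8 times the mean of vehicle 1 and 2, above the 75th percentile of 10.2 over the list. That mean rests on counts of 16 and 29, and vehicle 3 was 18.0 times vehicle 1 but 9.93 times vehicle 2. The ratio to the mean of vehicle 1 and 2 was 6.91 for Clec14a and 6.23 for Angpt1, near the list's median of 5.72. Of the 222 genes with a ratio, 38 exceeded Angptl7, 89 exceeded Clec14a and 101 exceeded Angpt1. Within a library, the count of Clec14a over that of Angpt1 was 1.06 in vehicle 3 and 0.708 to 1.26 in the other 5 libraries, so this pair kept its proportion. Angpt1 over Angptl7 was 1.42 in vehicle 3, below the 1.86 to 3.63 of the other 5, and Clec14a over Angptl7 was 1.5 in vehicle 3 and 1.93 to 4.31 in the other 5. These are ratios of raw counts, not corrected for transcript length.

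**Figure D2:**
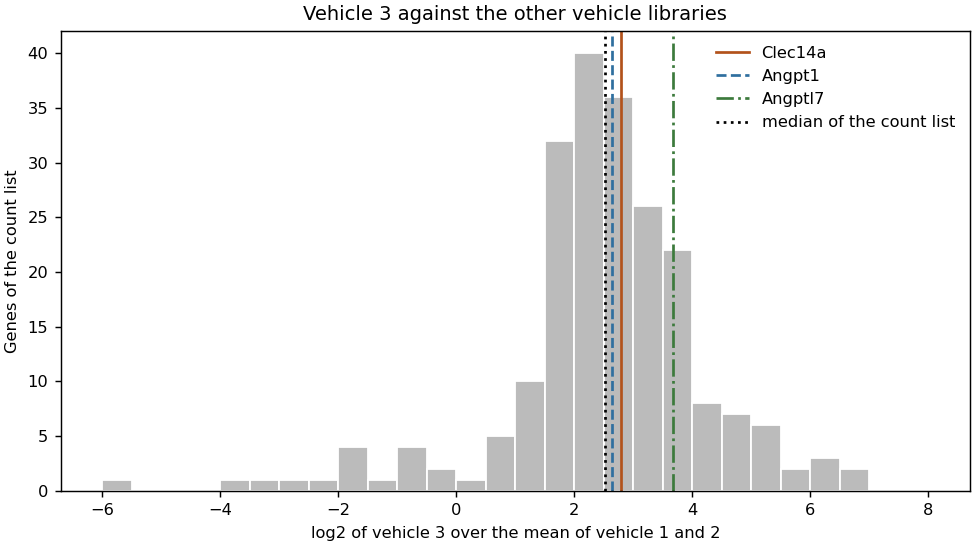
Histogram of the log2 ratio of vehicle 3 over the mean of vehicle 1 and 2 for 216 genes of the count list with a ratio above 0 (6 more had a ratio of 0 and 10 had none). Lines mark Clec14a and Angpt1 beside the median of the list, and Angptl7 to their right.

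As a share of the list, the groups were closer. Per 1000 counts of the list, Clec14a took 1.89, 2.62 and 2.54 in siRNA 1, 2 and 3, against 2.39, 2.28 and 3.31 in vehicle 1, 2 and 3. Angpt1 took 2.67, 2.08 and 2.70 against 2.01, 2.97 and 3.13. Angptl7 took 0.905, 1.12 and 0.845 with siRNA against 0.553, 1.18 and 2.21 with vehicle, and vehicle 3 remained the highest library for all 3 genes. Scaled by TMM, a normalisation that sets the bulk of the listed genes equal, the log2 folds were -0.09 for Clec14a, -0.03 for Angpt1 and -0.33 for Angptl7. The list was chosen for differences, so neither scaling can be called the right one. That scaling moved the median of all 232 genes to -0.12 from -1.55, with 141 genes negative and 91 positive in place of 207 and 25.

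The other vascular genes were read from a list of 109 genes written from general knowledge, of which 11 were in the count list, 11 in the second list and 88 in neither. Of the 11 counted genes, 0 passed in edgeR's test (0% of the list), 1 had an unadjusted p under 0.05 (Ccm2l), and DESeq2 and limma-voom called 0. Their median log2 fold was -1.59, beside -1.55 over all 232 genes. Without vehicle 3 it was -0.10 over 10 tested genes, 8 negative and 2 positive, beside -0.10 over 201, of which 59.2% were negative. Over all libraries 11 of 11 were negative, where 89.2% of the list was. The authors chose this list on these libraries, so its direction is not independent evidence.

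Mmrn2, which encodes multimerin 2, an endothelial matrix protein that binds CLEC14A, had counts of 7, 11 and 24 in siRNA 1, 2 and 3, against 25, 20 and 54 in vehicle 1, 2 and 3. Here siRNA 1 and 2 lay below every vehicle library, and siRNA 3 exceeded vehicle 2. Its log2 fold was -1.23 ± 1.04 (SE), and -0.68 ± 0.52 without vehicle 3 (adjusted p = 0.619, edgeR). Ecscr, an endothelial regulator of chemotaxis, had 2, 2 and 1 against 2, 3 and 31, and Kank3, a KANK-family adaptor protein enriched in endothelium, had 23, 34 and 22 against 25, 32 and 156. Outside vehicle 3 the groups of both overlapped or touched.

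Sphk1, the kinase that makes the S1PR1 ligand sphingosine-1-phosphate, was counted at 34, 32 and 20 in the siRNA libraries, against 26, 22 and 177 in the vehicle libraries. Its log2 fold of -1.38 ± 1.11 turned to 0.26 ± 0.32 without vehicle 3 and to 0.21 under TMM. Ntn1 (netrin 1, a guidance cue of axons and vessels), Lama5 (a laminin chain of basement membranes) and Sema4a (a semaphorin) gave log2 folds of -1.68, -1.59 and -1.04. Leaving out vehicle 3 gave -0.03, -0.28 and -0.27. Under TMM those of Ntn1 and Lama5 were -0.08 and -0.17, and that of Sema4a was positive, at 0.07.

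**Figure D3:**
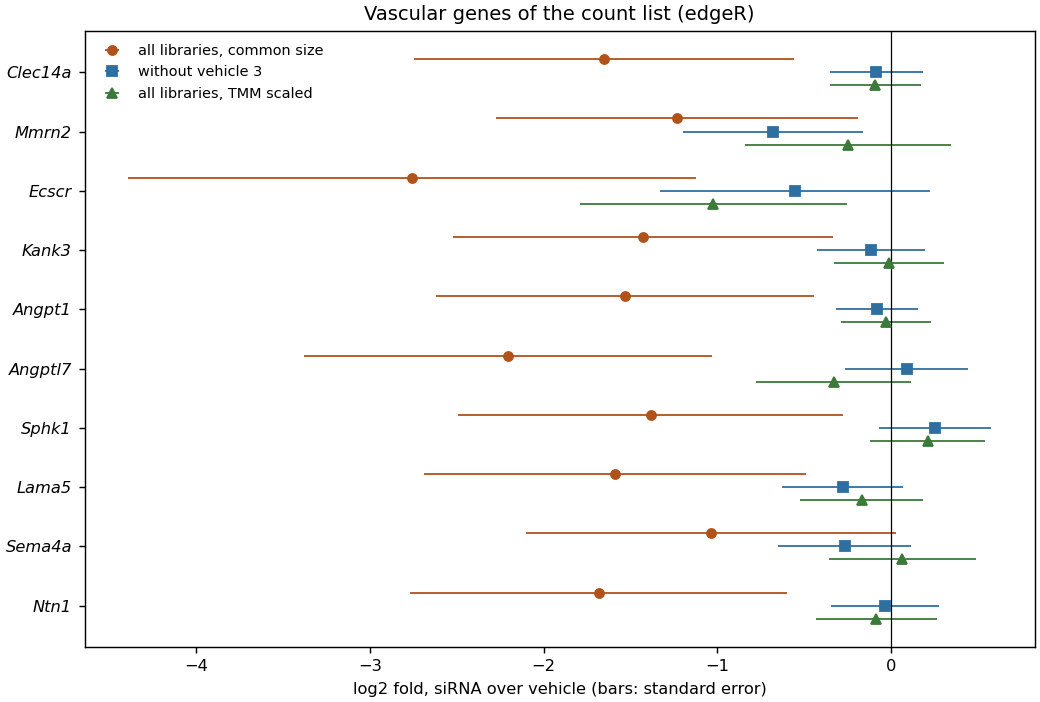
Log2 folds of siRNA over vehicle with standard errors for 10 vascular genes of the count list (edgeR), over all libraries with a common library size, without vehicle 3, and scaled by TMM. Circles lie between -2.76 and -1.04, and the squares and triangles nearer 0, with Sphk1 above 0 in both, Angptl7 only without vehicle 3 and Sema4a only under TMM. Ccm2l is left out because it had no count without vehicle 3.

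Markers of endothelium and leukocytes were read from the same counts. Of 16 endothelial markers 5 were in the count list, and 11, among them Pecam1, Cdh5, Kdr and Tek, were in neither list. The summed count of the 3 markers that are not members (Mmrn2, Ecscr and Kank3) was 32 to 47 in siRNA libraries, against 52, 55 and 241 in vehicle 1, 2 and 3. Of 12 leukocyte markers 8 were counted, with sums of 126 to 147 in siRNA libraries, against 119, 113 and 528 in vehicle 1, 2 and 3. Vehicle 1 and 2 thus lay below every siRNA library in the leukocyte sum and above every one in this endothelial sum. Neither order held for every choice of markers. Over all 5 counted endothelial markers the sums were 78, 115 and 110 in siRNA 1, 2 and 3. Those of vehicle 1 and 2 were 121 and 111, so siRNA 2 exceeded vehicle 2. Of the 8 leukocyte markers 7 were highest in vehicle 3, a share near the 86.6% of the list. The exception, Cd207, a lectin of Langerhans cells, had 58, 78 and 60 with siRNA against 47, 45 and 1 with vehicle, lowest in vehicle 3. Outside vehicle 3 Cd207 was the largest of the leukocyte counts in each library, and the order of the leukocyte sums rested on it. The part of other cells in these counts was not tested, and in bulk RNA fewer cells of a type cannot be told apart from less RNA per cell. In the second list the mesenchymal markers Pdgfra, Col3a1 and Ly6a had values in both groups (3 of 10 such markers listed). Every gene tested in that list has values in both groups, so this is no check of the preadipocyte label. Of 9 adipocyte markers 2 were listed. Adipoq, the adipocyte hormone adiponectin, was at 3.47 and 2.83 in siRNA 1 and 3 against 8.76 and 8.96 in vehicle 1 and 2, and Lpl, lipoprotein lipase, was at 279 to 299 in siRNA libraries against 335 to 377 in vehicle libraries.

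In the count list, 3 genes were named for each member as most alike by Pearson correlation of log2 counts plus 0.5. They were Dpt (r = 0.996), C1s2 and Enpp2 for Clec14a, Ntn1 (r = 0.999), Ptgfr and Itga10 for Angpt1, Cd80 (r = 0.999), Tgtp1 and Kera for Angptl7, and Unc93a (r = 0.998), Atg9b and Cpa4 for Ccm2l. These values run over 6 libraries of which 1 sets the pattern, and the median r over the genes compared was 0.949, 0.950, 0.941 and 0.961 for Clec14a, Angpt1, Angptl7 and Ccm2l. Over the 5 libraries without vehicle 3, r was 0.90 for Clec14a with Dpt, 0.978 for Angpt1 with Ntn1 and 0.982 for Angptl7 with Cd80, and Ccm2l has no value there. Tgtp1 has a near-identical copy, Tgtp2, and its counts are uncertain.

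S1pr1, the receptor for sphingosine-1-phosphate, was lower with Lhx8 siRNA in the second list. Genuine values were 7.55 and 6.85 in siRNA 2 and 3, against 11.64 and 14.0 in vehicle 2 and 3. Both siRNA values lay below both vehicle values, and of the 496 genes tested in this list 96.8% had groups that did not overlap, 48% in the lower direction. The cells of siRNA 1 and vehicle 1 were in a date format of unstated origin. Read as numbers they were 7.20 and 12.82, the means of the other 2 values of their group, and they were not used. Of the 570 such cells in the list, 526 equalled the mean of their group's other values within 0.01. Means were 7.20 ± 0.495 with siRNA and 12.8 ± 1.67 with vehicle (SD, n = 2 each), a ratio of 0.562.

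The log2 difference of siRNA minus vehicle was -0.82 ± 0.13 on the scale of log2(value + 0.1) (SE, limma, adjusted p = 3.26e-05). Its standard error borrows from all 496 genes tested. An exact permutation test over the 2 against 2 libraries gave p = 0.333, the smallest this design allows. Without vehicle 3 the difference was -0.69 ± 0.17 (adjusted p = 2.34e-04, limma), with vehicle 2 as the only vehicle value, assumed to vary like the other genes and groups. In this list 98.4% of the genes passed, 48.8% in the lower direction, so passing sets S1pr1 apart from nothing in the list. How the authors chose the list is not stated. With so large a share of it passing, no p-value from it is taken as independent evidence, for S1pr1 or any other gene. In size S1pr1 was the ninth most negative, with 8 genes below it (rank 9 of 496), where the median absolute difference was 0.27. The listed preadipocyte and adipocyte markers were also lower with siRNA, with log2 differences of -0.27 for Pdgfra, -0.21 for Col3a1, -0.39 for Ly6a, -0.29 for Lpl and -1.47 for Adipoq, all past the threshold in limma. Their part in the value of S1pr1 was not tested. The mean value of S1pr1, 10.0, was low for the list, with 11.8% of the genes below it.

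Other genes of the sphingosine-1-phosphate group did not share 1 direction. Plpp3, a lipid phosphatase that breaks down the lipid outside cells, had values of 147, 147 and 142 in siRNA 1, 2 and 3, against 185.0, 180.4 and 199 in vehicle 1, 2 and 3. The groups did not overlap, and Plpp3 fell by 0.37 on the log2 scale (adjusted p = 4.29e-06, limma). S1pr3, a second receptor for the lipid, rose, with 79.6, 81.9 and 85.7 against 71.2, 73.5 and 70.4, a log2 difference of 0.20 ± 0.06 (adjusted p = 0.00254, limma). By the similarity rule the genes closest to S1pr1 were Plpp3 (r = 0.999), Tacc1 and Ssc5d, over only 4 libraries, and 104 of the 273 genes compared had r above 0.9.

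**Figure D4:**
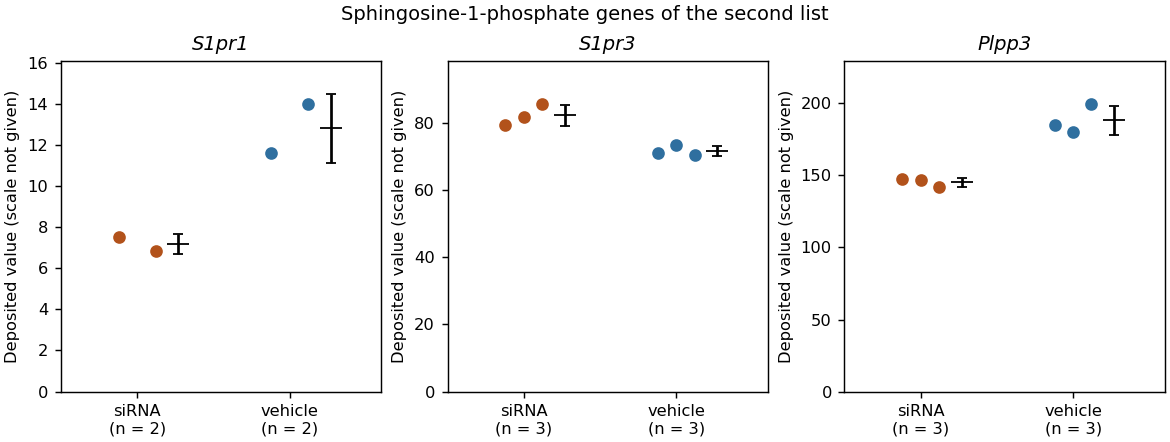
Deposited values (scale not given, axis from 0) of S1pr1, S1pr3 and Plpp3 in siRNA and vehicle libraries, with the mean and SD beside the points and n under each group. S1pr1 and Plpp3 are lower and S1pr3 is higher in siRNA libraries, without overlap.

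All 11 vascular genes of the second list passed, 4 lower and 7 higher with siRNA, beside 48.8% and 49.6% of the list. The thrombospondins, secreted inhibitors of angiogenesis, went opposite ways. Thbs1 rose, with 934, 994 and 998 in siRNA 1, 2 and 3 against 639, 696 and 714 in vehicle 1, 2 and 3, and a log2 difference of 0.51. Thbs2 fell, with 638, 692 and 617 against 738, 826 and 855, and a difference of -0.31. Vegfb, a growth factor of the VEGF family, also fell, by 0.25 on the log2 scale. Unc5b, a netrin receptor of vessels, Hspg2 (perlecan), Adamts1 and Cyr61 rose by 0.22, 0.21, 0.33 and 0.27.

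Lama5, the only vascular gene in both lists, had opposite signs in them. In the second list it rose, with 89.3 and 102 in siRNA 1 and 2 against 58.7, 69.6 and 69.0 in vehicle 1, 2 and 3, a log2 difference of 0.54 ± 0.08 (adjusted p = 9.74e-06, limma). Its counts were 15, 25 and 28 with siRNA against 24, 31 and 150 with vehicle. Vehicle 3 was 5.45 times the mean of vehicle 1 and 2 in the counts of Lama5, and 1.08 times in its values. Of the 12 genes tested in both lists, which come from the same libraries, 10 had the same sign. All 12 were negative in the count list, as was 89.2% of that list, so the tally says only that 10 were negative in the second list. Over the 14 genes with a value in vehicle 3 in both, the ratio of vehicle 3 was 2.20 to 115 in the count list (median 6.34) and 1.00 to 1.14 in the second list (median 1.08). Clec14a, Ccm2l, Angpt1 and Angptl7 have no value in the second list, and whether the excess in vehicle 3 holds there could not be read for them.

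**Figure D5:**
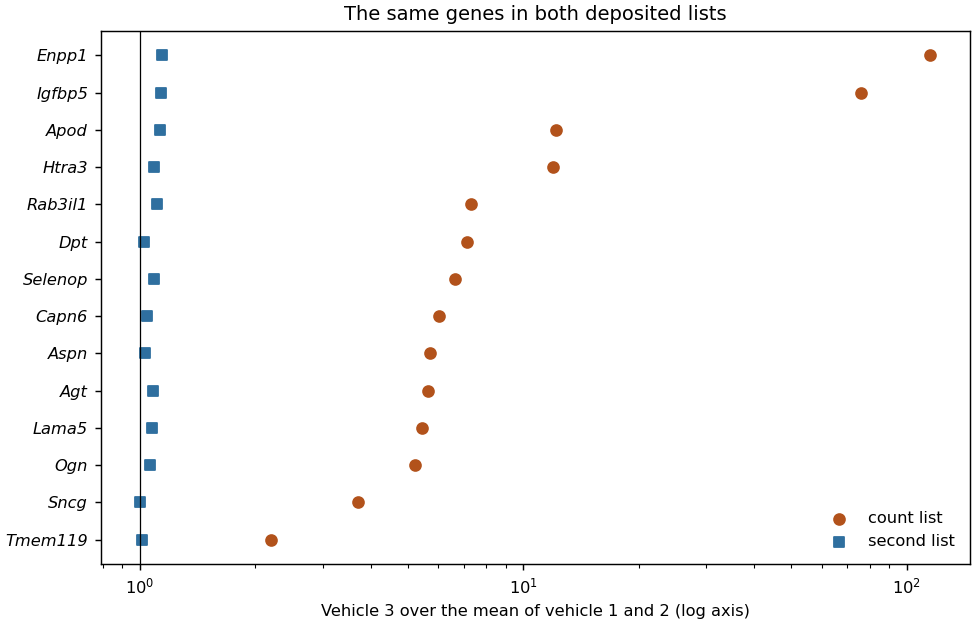
Vehicle 3 over the mean of vehicle 1 and 2 (log axis) for the 14 genes with a value in both deposited lists. Circles of the count list lie between 2.20 and 115, and squares of the second list between 1.00 and 1.14.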

How the data were processed

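Poly(A) RNA of cultured mouse cells was sequenced in 6 libraries on a DNA nanoball platform, and groups were taken from the sample titles. Reads were aligned with HISAT and Bowtie2, quantified with RSEM and compared with DESeq2, per the study's methods. Tool versions, the genome build, the annotation and any use of strand were not given in the sources used here. Estimated counts were deposited by the authors for 232 genes (86.8% whole numbers), and the counts of the 4 members were repeated in a second table without change (24 of 24 cells). The rest of that table holds values that the authors deposited as read counts, of which 0.920% are whole, and they were treated as a score of unknown scale. Of its 3612 cells, 570 were in a date or time format and were not used as measurements. The authors' own log2 ratios, p-values and group means were not used.

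Counts were rounded and tested with edgeR 4.0.16 (quasi-likelihood, R 4.3.3), unpaired, with 1 common library size and a summed count of at least 10. Scores were tested with limma 3.58.1 on log2 of the value plus 0.1, for genes with at least 2 genuine values per group. Adjustment (Benjamini-Hochberg) ran over each whole list, with a threshold of 0.05. Both tests were checked on simulated data. The alternatives were TMM, DESeq2 1.42.0, limma-voom, other filters and pseudocounts, centring, a replicate block and leaving out each library. Genes named are the 5 members, all measured genes of the vascular lists, markers of other cell types and the 3 genes most alike to each member (mean count of at least 20 in the count list, 6 genuine values in the second). Members and lists were chosen with earlier results of these data known. No 2 libraries of a group agreed within sampling noise (chi-square per degree of freedom 5.32 to 30.8).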

Additional observations from a re-analysis of the deposited data

How the results depend on the processing

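Clec14a and Angpt1 had a negative log2 fold and no call under every alternative run. The sign of Ccm2l is fixed by its counts wherever vehicle 3 is kept, its fitted folds are no bound, and it had no value without vehicle 3 and none with a mean count of at least 20. Leaving out 1 library gave -2.08 to -0.08 for Clec14a, -1.95 to -0.08 for Angpt1, -6.34 to -5.76 for Ccm2l, -2.72 to 0.09 for Angptl7 and -0.95 to -0.69 for S1pr1. For S1pr1, leaving out siRNA 1 or vehicle 1 removes no value and each other choice leaves 1 value in a group, whose spread is then taken from other genes and groups. The value nearest 0 was in each case the one without vehicle 3, apart from Ccm2l. Angptl7 reversed to 0.0926 without vehicle 3 and to 0.12 with TMM and vehicle 3 left out, an alternative added after seeing the data.

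In the count list 0 genes passed in edgeR (27 of 232 had an unadjusted p under 0.05), 1 by DESeq2 with its own size factors, 1 with TMM and vehicle 3 left out, and 0 to 6 on leaving out 1 library (6 without vehicle 1 and 5 without vehicle 2). None of these calls was a vascular gene. In the second list 488 passed, 271 when only the 273 genes with genuine values in every library were tested, and 466 to 488 on leaving out 1 library. Of the vascular genes of the count and the second list, 0 and 11 passed with and without vehicle 3.

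The labels do not say whether the replicate numbers pair the libraries, and 3 libraries a group cannot settle it. Same-numbered libraries had deviations correlated at 0.06, 0.05 and 0.12 in the count list and 0.25, 0.12 and 0.03 in the second. Differently numbered ones had -0.11 to 0.06 in the count list and -0.31 to 0.13 in the second. Not every library correlated best with its own number. With a replicate block 0 and 445 genes passed, with log2 folds of -0.9955 for Clec14a, -5.24 for Ccm2l, -0.93 for Angpt1, -0.97 for Angptl7 and -0.82 for S1pr1. Precision is limited by 3 libraries a group, by 2 genuine values a group for S1pr1, and by the lack of library depths.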

Other observations

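Mural cells, the pericytes and smooth muscle cells that wrap vessels, share contractile genes with activated fibroblasts, and 3 of 10 mural markers were in the second list, all higher with siRNA. Acta2 (smooth muscle actin) had values of 5305 and 5348 in siRNA 1 and 3 against 4417, 4453 and 4193 in vehicle 1, 2 and 3, and rose by 0.29 on the log2 scale (adjusted p = 6.13e-05, limma). Tagln (transgelin) had 1624, 1501 and 1636 in siRNA 1, 2 and 3 against 1370, 1211 and 1264 in vehicle 1, 2 and 3, and rose by 0.31. Cspg4 (NG2), a pericyte proteoglycan, had 20.4, 21.3 and 19.4 with siRNA against a single genuine vehicle value of 15.5 in vehicle 3, and was not tested. In this list 49.6% of all genes tested passed in the higher direction.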
